A study of Saccharomyces cerevisiae with 9 samples.

Results

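The genes described here encode the protein subunits of the mitochondrial ribosome of Saccharomyces cerevisiae. They were taken by name. Every gene whose current symbol is MRPL, MRPS or RSM followed by a number was included, which gave 54 genes out of 6256 probes on the array, each with 1 probe. The 34 MRPL genes encode proteins of the large subunit. The small subunit was represented by 20 genes, of which 9 are MRPS genes and 11 are RSM genes. Their systematic names placed them on 14 of the 16 chromosomes, with 9 on chromosome IV, 8 on chromosome XIV and 7 on chromosome XIII. According to the protein family names in the RefSeq gene table, 33 of the 54 have a counterpart in the bacterial ribosome, 20 are specific to mitochondria, and RSM22 is a methyltransferase-like protein without a family name.

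The mitochondrial ribosome translates the small set of mRNAs that mitochondrial DNA encodes, most of which specify core subunits of the respiratory chain and the ATP synthase. Its RNAs and the protein Var1 are made inside the organelle, while all other proteins, including the 54 described here, are encoded in the nucleus, translated in the cytosol and imported. Loss of most of these proteins, each on its own, leaves yeast unable to respire and prone to lose its mitochondrial DNA. The large subunit holds the peptidyl transferase centre and the exit tunnel of the new chain, and the small subunit holds the mRNA and the decoding site.

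The strains compared were 3, each on 3 one-colour arrays. Sun049T-Z is the thermotolerant diploid parent, with the genotype Control in the labels and a zeocin marker at the HO locus. Sun224T-K is the acid-tolerant diploid parent, labelled PHO13 deleted and carrying a KanMX marker at HO. Hyb-8 is a single strain chosen among hybrids that spores of these parents gave in genome shuffling, and it is also labelled PHO13 deleted. The parental cells had been treated with UV before sporulation, and hybrids were selected for both drug markers. All of them carried a plasmid with XYL1, XYL2 and XKS1 for xylose use. RNA came from cells at 3 h of fermentation at 38°C in YPX medium with 50 g/L xylose. The study describes its fermentations as microaerobic, in closed bottles, after aerobic preculture in YPD medium. Formic acid at 15 mM and acetic acid at 20 mM had been added, so all strains were under heat and acid stress and no unstressed culture was compared. The sources speak of arrays in triplicate without saying that these were separate cultures, so p-values measure the spread between these arrays, which may be technical.

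Of the 6256 probes, 5947 were tested, those for which some strain had all 3 arrays well above background, and all 54 mitochondrial ribosomal protein genes were well above background on all 9 arrays. The 75th percentile of the processed signal was between 1044 and 4830 per array, and arrays of 1 strain correlated at r of 0.9798 to 0.9951 over all 6256 probes. Sun049T-Z replicate 1 stood apart, with a median SD between repeated spots of 0.324 on the log2 scale against at most 0.0667 on the other arrays. It was alone on its slide, as was Hyb-8 replicate 2. The 2 other slides held all 3 strains, and differences within them are given below. One held Hyb-8 replicate 1, Sun049T-Z replicate 2 and Sun224T-K replicates 1 and 2, and the other the third replicates. Differences within a slide therefore rest on a single array of Hyb-8 and of Sun049T-Z. The PHO13 probe went against the genotype labels: its log2 level was -3.71, -3.74 and -3.90 in Sun049T-Z, labelled Control, and -1.74 to -1.20 in Sun224T-K and -1.74 to -1.71 in Hyb-8. Where in the gene this probe lies is not given in the sources used here, and the strain names below are those of the labels. Of 19 haploid and mating-type genes, 14 were well above background on all arrays and 1, MF(ALPHA)2, on none. Their summed level relative to the 75th percentile was 1.47 to 1.86 in Hyb-8, compared with 1.69 to 1.86 in Sun049T-Z and 1.26 to 1.39 in Sun224T-K. Single genes went both ways. Among the 16 tested, log2 differences ran from -2.35 to 1.77 for Hyb-8 minus Sun049T-Z and from -0.26 to 1.06 for Hyb-8 minus Sun224T-K. For Sun224T-K minus Sun049T-Z they ran from -3.40 to 1.25. The part of these genes in the results below was not tested.

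The mitochondrial ribosomal protein genes were lowest in Hyb-8. A level is given here as the log2 of the processed signal minus the 75th percentile of its array, so that a difference of -1 between strains is a 2-fold lower signal. When each gene was set to the mean of its 3 strain means, the median over the large-subunit genes was -0.19, -0.43 and -0.25 for replicates 1 to 3 of Hyb-8. It was 0.20, 0.19 and 0.19 for those of Sun049T-Z and 0.04, 0.25 and 0.04 for those of Sun224T-K. The small-subunit genes had -0.22, -0.40 and -0.19 in Hyb-8, 0.14, 0.19 and 0.17 in Sun049T-Z, and 0.03, 0.18 and 0.0006 in Sun224T-K. On every Hyb-8 array both medians were below those of all 6 parental arrays. The lowest was Hyb-8 replicate 2, and within Sun224T-K the highest was replicate 2. Over all tested probes the same median stayed between -0.01 and 0.03 on every array.

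**Figure D1:**
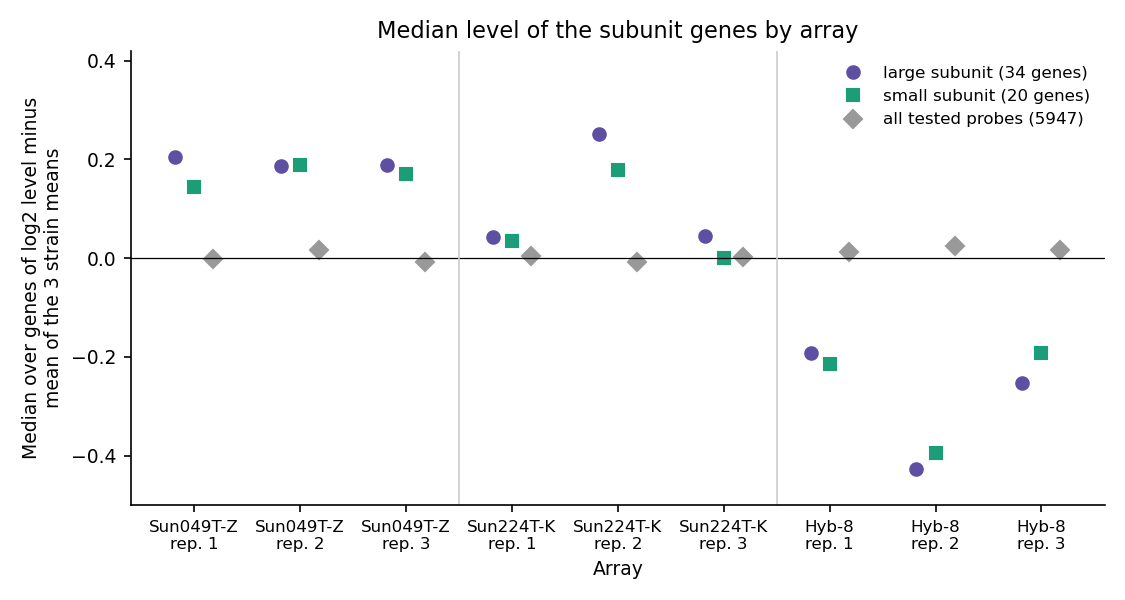
Median over the genes of each subunit, and over all tested probes, of the log2 level after subtracting the mean of the 3 strain means of each gene (vertical axis), for the 9 arrays (horizontal axis). Both subunits are between -0.43 and -0.19 on the Hyb-8 arrays and between 0.0006 and 0.25 on the parental arrays, while all tested probes stay near 0.

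The spread between arrays of 1 strain was similar for these genes and for the whole array. The median SD over the 54 genes was 0.16 in Hyb-8, compared with 0.10 in Sun049T-Z and 0.15 in Sun224T-K, against 0.14, 0.15 and 0.15 over all tested probes. The largest SD in Sun049T-Z was 0.69, for MRPL31.

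**Figure D2:**
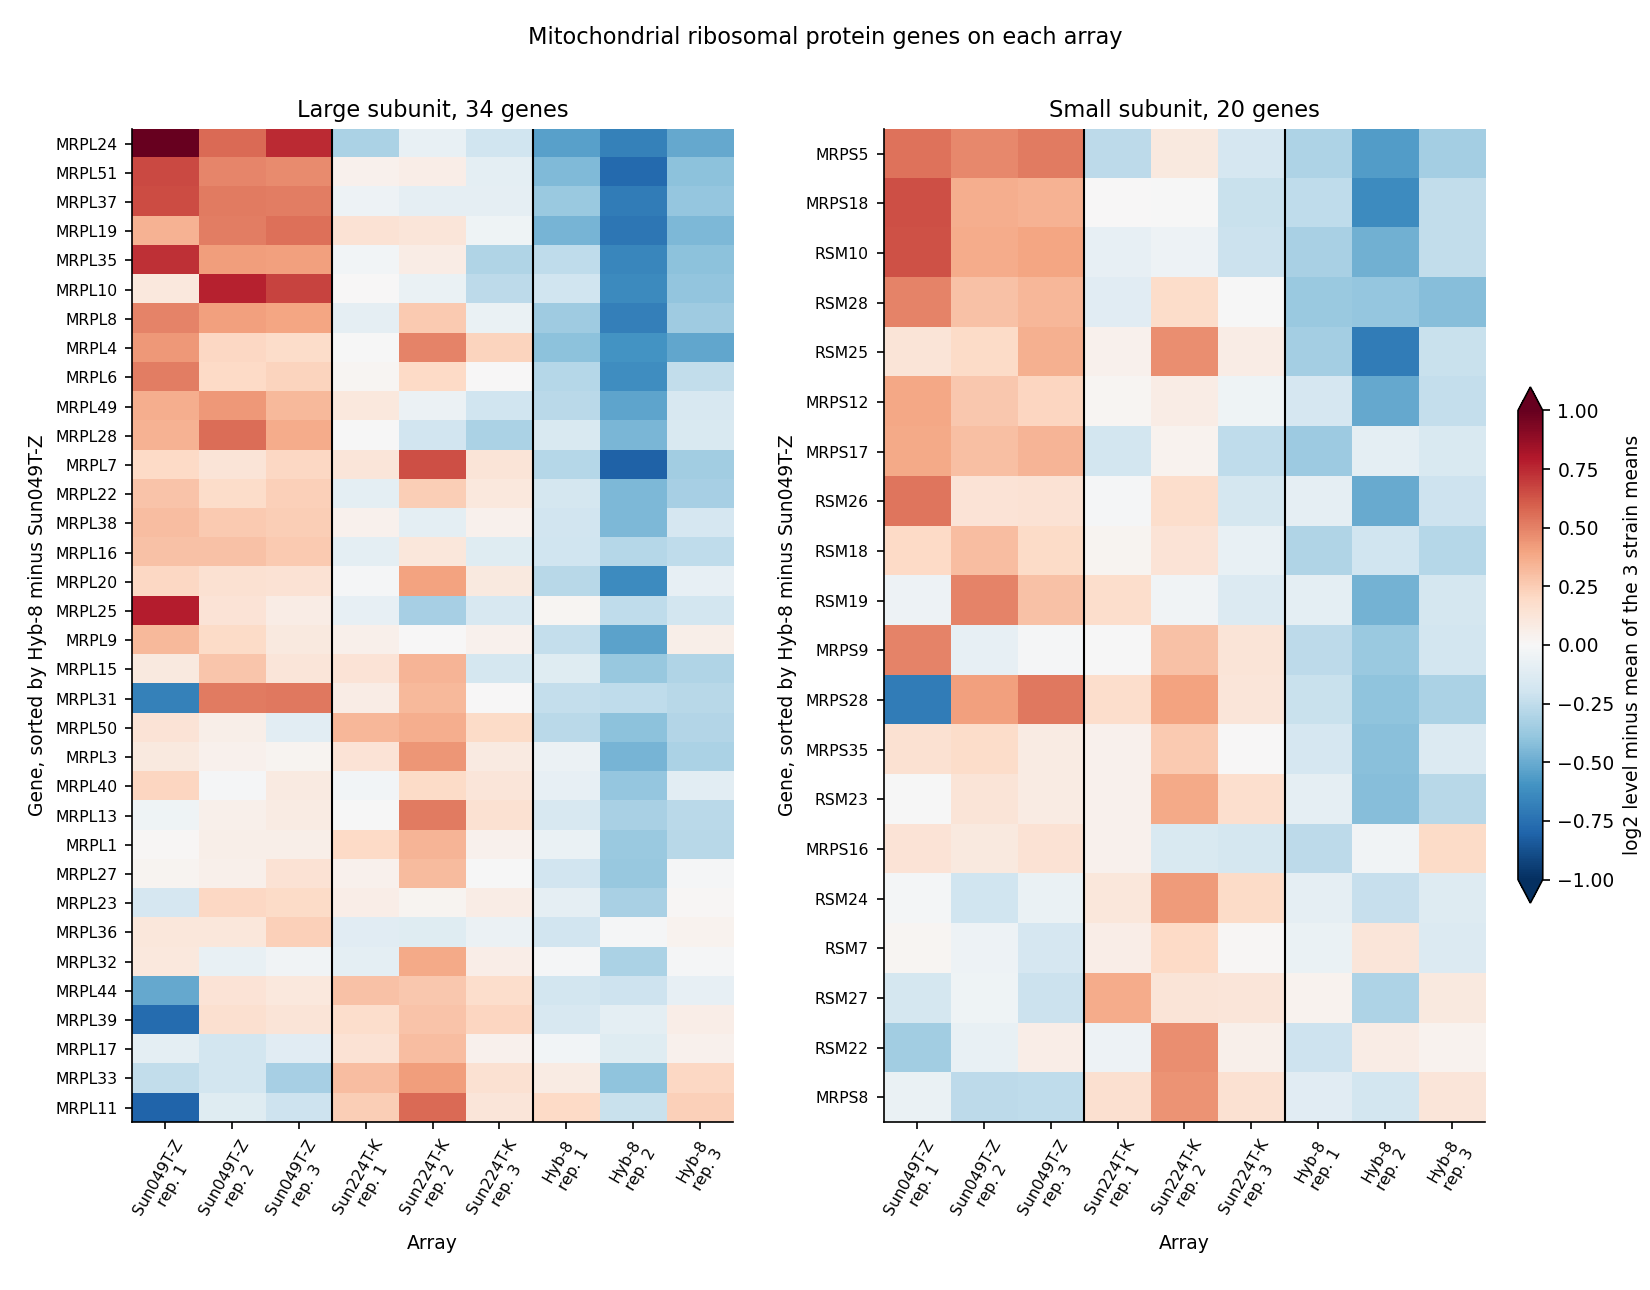
Log2 level of each of the 54 genes (rows) on each of the 9 arrays (columns, 3 per strain) after subtracting the mean of the 3 strain means of that gene, with the colour scale from -1 to 1. Rows are sorted by the difference between Hyb-8 and Sun049T-Z, and the Hyb-8 columns are blue for most rows, most of all in replicate 2.

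The first comparison set Hyb-8 against its thermotolerant parent Sun049T-Z. The median log2 difference was -0.46 for the large subunit and -0.45 for the small subunit, against 0.03 over all tested probes. In the limma fit, with p-values adjusted after Benjamini and Hochberg across the tested probes, 19 of 34 large-subunit genes and 12 of 20 small-subunit genes were lower in Hyb-8 at an adjusted p under 0.05, a threshold referred to below as passing, and none was higher. At an unadjusted p under 0.05 there were 23 and 13 lower and 0 higher, where 3643 of the 5947 tested probes differed in either direction. The adjusted rule called 27.3% of all tested probes lower and 28.7% higher. With the additional threshold of a 2-fold change, which the study used, 4 large-subunit genes and no small-subunit gene were lower and none was higher, against 9.1% of all probes lower and 9.37% higher. The 3 Hyb-8 arrays lay entirely below the 3 Sun049T-Z arrays for 26 large-subunit and 13 small-subunit genes and entirely above them for none, against 31.6% and 34.1% of all probes. Without Sun049T-Z replicate 1, the count lower at an adjusted p under 0.05 was 34 of 54 rather than 31, and without Hyb-8 replicate 2 it was 24. Of all tested probes, 27.6% and 25.6% were lower in these fits. Within the slides that held all strains, with a single array of each of these strains per slide, the large-subunit median was -0.41 and -0.39. The small-subunit median was -0.40 and -0.41.

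The genes past the 2-fold threshold were MRPL24, MRPL51, MRPL37 and MRPL19. MRPL24, the counterpart of bacterial ribosomal protein bL28, was at log2 levels of -0.72, -1.15 and -0.97 in Sun049T-Z, -2.03, -1.79 and -1.91 in Sun224T-K, and -2.26, -2.39 and -2.23 in Hyb-8. The groups of arrays did not overlap, and Sun049T-Z was the highest by a wide margin. Hyb-8 was 2.54-fold lower than Sun049T-Z, a log2 difference of -1.35 ± 0.13 (SE, n = 3 arrays per strain, limma adjusted p = 2.77e-05). MRPL51, which encodes the mitochondrion-specific protein mL43, was at 1.29, 1.11 and 1.1 in Sun049T-Z, 0.67, 0.70 and 0.53 in Sun224T-K, and 0.19, -0.15 and 0.22 in Hyb-8. Its log2 difference was -1.08 ± 0.12 (limma adjusted p = 8.52e-05), and the 3 strains were again fully separated, with Hyb-8 the lowest.

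MRPL37, coding for mL54, also a protein without bacterial counterpart, was at 1.19, 1.06 and 1.05 in Sun049T-Z, 0.49, 0.45 and 0.45 in Sun224T-K, and 0.17, -0.16 and 0.15 in Hyb-8. The log2 difference between Hyb-8 and Sun049T-Z was -1.05 ± 0.11 (limma adjusted p = 5.81e-05). MRPL19 encodes the counterpart of bacterial uL11, a protein at the base of the stalk where translation factors bind. Its levels were -2.36, -2.19 and -2.15 in Sun049T-Z, -2.56, -2.59 and -2.75 in Sun224T-K, and -3.17, -3.43 and -3.15 in Hyb-8, with a log2 difference of -1.02 ± 0.12 (limma adjusted p = 8.33e-05). In both genes the array groups of the 3 strains followed each other without overlap, in the order Sun049T-Z, Sun224T-K, Hyb-8. MRPL24 alone stayed past the 2-fold threshold without Hyb-8 replicate 2.

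**Figure D3:**
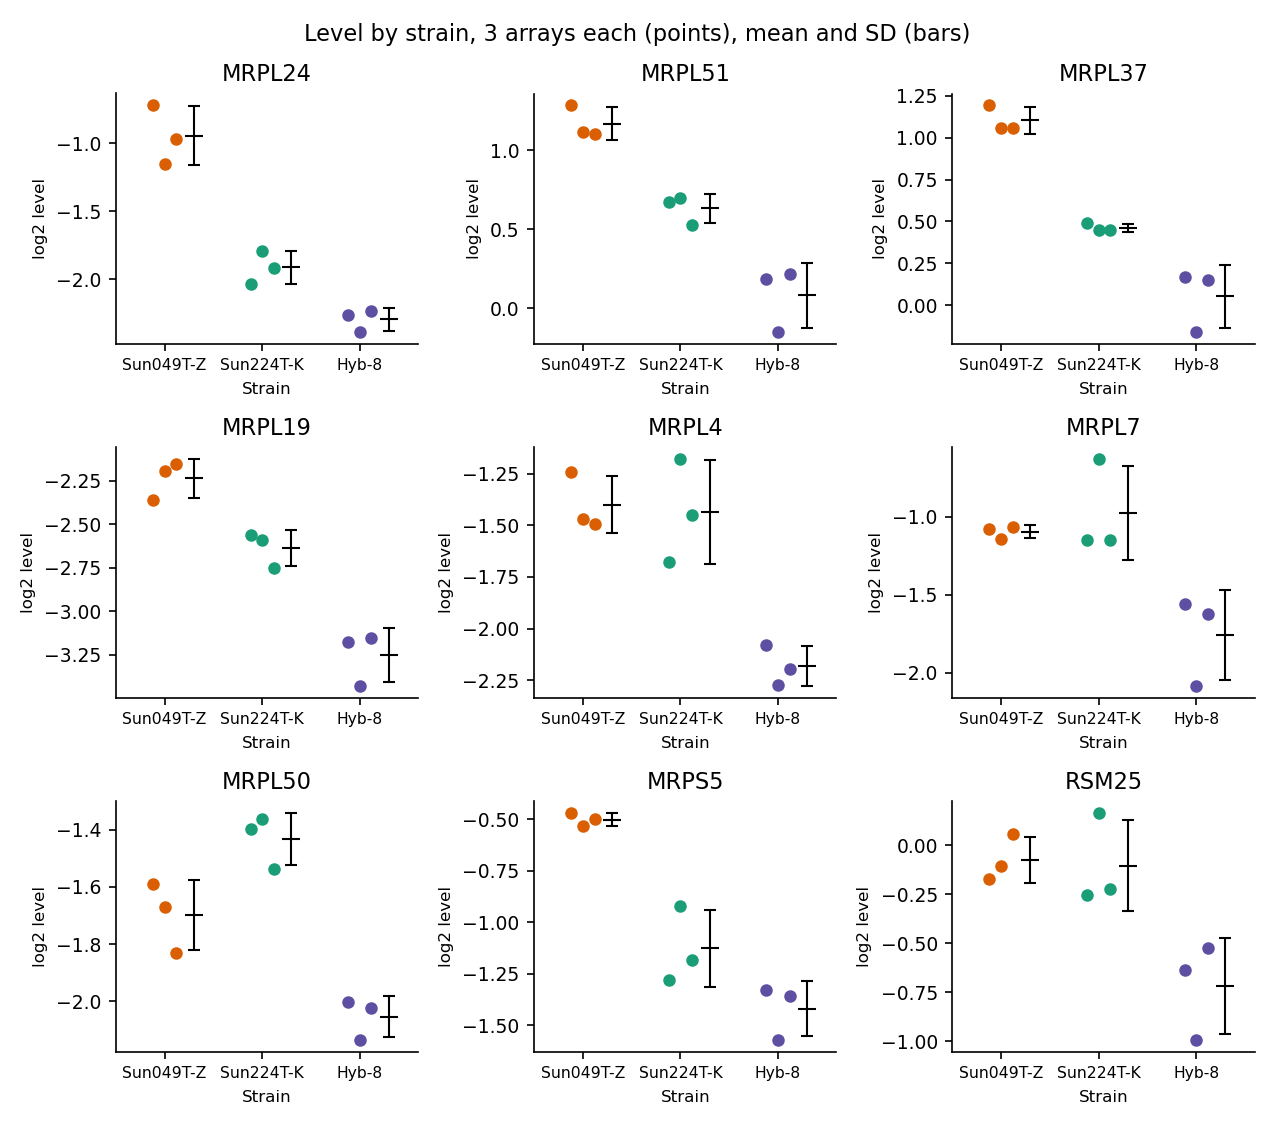
Log2 level (vertical axis, scaled separately in each panel) of 9 genes in the 3 strains, with 1 point per array and the mean and SD of the 3 arrays beside them. In all panels the 3 Hyb-8 points lie below the 6 parental points, and in the panels of MRPL24, MRPL51, MRPL37, MRPL19 and MRPS5 the Sun224T-K points lie between the other strains.

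Other large-subunit genes with a large difference between Hyb-8 and Sun049T-Z stayed short of 2-fold. MRPL35 (mL38), a protein of the central protuberance, was 1.95-fold lower, MRPL10 (uL15) 1.90-fold, MRPL8 (bL17) 1.86-fold and MRPL4 (uL29), which lies near the tunnel exit, 1.72-fold, with limma adjusted p from 0.000382 to 0.00232. With the spots marked as outliers kept, MRPL8 did not pass (a log2 difference of -0.54, adjusted p = 0.104). The exit tunnel protein MRPL22 (uL22) had a log2 difference of -0.55 (limma adjusted p = 0.00325), and MRPL16 (uL16), which lies close to the A-site tRNA, one of -0.53 (limma adjusted p = 0.00136). The 4 large-subunit genes with a positive difference did not pass: MRPL11 (0.45, adjusted p = 0.0944), MRPL33 (0.22, adjusted p = 0.27), MRPL17 (0.10, adjusted p = 0.443) and MRPL39 (0.09, adjusted p = 0.731). The 15 large-subunit genes that did not pass had differences between -0.47 and 0.45.

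Among the small-subunit genes, MRPS5 differed most between Hyb-8 and Sun049T-Z. Its product, the counterpart of uS5, lies at the entry of the mRNA channel. MRPS5 was at -0.47, -0.53 and -0.50 in Sun049T-Z, -1.28, -0.92 and -1.18 in Sun224T-K, and -1.33, -1.57 and -1.36 in Hyb-8. Hyb-8 was 1.89-fold lower than Sun049T-Z, a log2 difference of -0.92 ± 0.12 (limma adjusted p = 0.000187), and no array groups overlapped. MRPS18 (uS11, of the platform) had a difference of -0.83, RSM10 (uS10, of the head) one of -0.81, and RSM28 (mS46, a yeast protein linked to translation initiation) one of -0.77, each with a limma adjusted p under 0.001. RSM25 (mS23) followed with -0.64 (limma adjusted p = 0.00707), and MRPS12, which encodes the decoding-site protein uS12, with -0.60 (limma adjusted p = 0.00166). With the spots marked as outliers kept, MRPS12 did not pass (-0.22, adjusted p = 0.465). The genes nearest to 0 were RSM7 (uS7), with a difference of 0.04, and RSM24 (mS35), with -0.05.

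**Figure D4:**
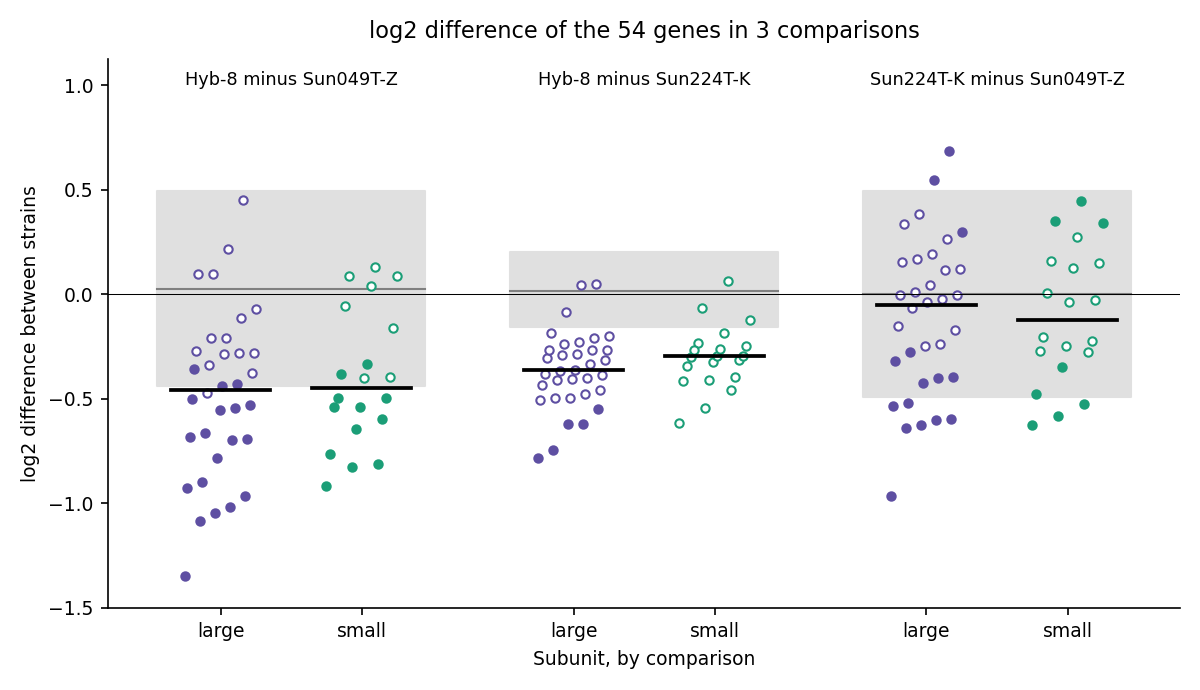
Log2 difference (vertical axis) of the 34 large-subunit and 20 small-subunit genes in the 3 comparisons, with filled points for an adjusted p under 0.05, black bars for the median of each subunit, and grey for the median and quartiles of all tested probes. The medians are -0.46 and -0.45 for Hyb-8 minus Sun049T-Z, -0.36 and -0.30 for Hyb-8 minus Sun224T-K, and -0.05 and -0.12 for Sun224T-K minus Sun049T-Z.

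The second comparison set Hyb-8 against its acid-tolerant parent Sun224T-K, with the same Hyb-8 arrays. Nearly all genes lay on 1 side of 0. The median was -0.36 for the large subunit and -0.30 for the small subunit, against 0.01 over all tested probes, and 32 of 34 large-subunit and 19 of 20 small-subunit genes were below 0. At an adjusted p under 0.05, 5 large-subunit genes and no small-subunit gene were lower in Hyb-8, and none was higher, against 2.46% of all probes lower and 3.03% higher. At an unadjusted p under 0.05 the limma fit gave 20 large-subunit and 10 small-subunit genes, all lower. By that rule 1348 of the 5947 tested probes differed in either direction. None was 2-fold lower or higher, a call made for 0.387% of all probes in the lower and 0.858% in the higher direction. The 3 Hyb-8 arrays lay entirely below the 3 Sun224T-K arrays for 22 large-subunit and 14 small-subunit genes and entirely above for none, where 14.9% and 15.5% of all probes did so. Within the slides that held all strains, the median was -0.32 and -0.20 for the large and -0.29 and -0.14 for the small subunit.

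The genes that passed against Sun224T-K were MRPL7, MRPL4, MRPL50, MRPL19 and MRPL51. MRPL7 encodes uL5, which belongs to the central protuberance. It was at -1.15, -0.63 and -1.15 in Sun224T-K, -1.56, -2.09 and -1.62 in Hyb-8, and -1.08, -1.15 and -1.07 in Sun049T-Z. Hyb-8 was lower than Sun224T-K by a log2 difference of -0.78 ± 0.18 (limma adjusted p = 0.0378) and the lowest and highest arrays were Hyb-8 replicate 2 and Sun224T-K replicate 2. MRPL4 was at -1.68, -1.18 and -1.45 in Sun224T-K, -2.08, -2.27 and -2.19 in Hyb-8, and -1.24, -1.47 and -1.49 in Sun049T-Z, so that the parental arrays overlapped and the Hyb-8 arrays lay below both. The difference was -0.75 ± 0.14 (limma adjusted p = 0.0201). MRPL50, the counterpart of bL9, was at -1.40, -1.36 and -1.54 in Sun224T-K, -2.00, -2.14 and -2.02 in Hyb-8, and -1.59, -1.67 and -1.83 in Sun049T-Z. Here Sun224T-K was the highest strain, and the difference of Hyb-8 from it was -0.62 ± 0.10 (limma adjusted p = 0.0129). For MRPL19 the difference was -0.62 (limma adjusted p = 0.0197) and for MRPL51 -0.55 (limma adjusted p = 0.0372).

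These calls were sensitive to single arrays, and none of them held with normexp, another background correction. With 1 array left out at a time, 0 to 9 of the 54 genes passed against Sun224T-K, down to 0 when Hyb-8 replicate 3 was omitted, 1 when either Hyb-8 replicate 2 or Sun224T-K replicate 3 was, 2 when Sun224T-K replicate 1 was, and up to 9 when Sun049T-Z replicate 1 was. In the fit without Sun049T-Z replicate 1, 3 small-subunit genes, MRPS28, MRPS9 and RSM28, were among those that passed. Among the small-subunit genes, RSM25 had the largest difference. It was at -0.26, 0.17 and -0.22 in Sun224T-K and -0.64, -1.0 and -0.52 in Hyb-8, a log2 difference of -0.62 ± 0.16 (limma adjusted p = 0.0579). MRPS28 (uS15) had -0.55 (adjusted p = 0.285) and RSM23, the yeast counterpart of human DAP3, -0.46 (adjusted p = 0.0649). The genes above 0 were MRPL36 (0.04), MRPL25 (0.05) and MRPS16 (0.06), none of them past the threshold.

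The third comparison, between the parents, shares the Sun049T-Z arrays with the first and the Sun224T-K arrays with the second. The genes moved in both directions, and their medians were near 0: -0.05 for the large subunit and -0.12 for the small subunit in Sun224T-K minus Sun049T-Z, against 0.0002 over all tested probes. At an adjusted p under 0.05, 12 large-subunit and 5 small-subunit genes were lower in Sun224T-K and 3 of each subunit were higher, while 29.1% of all probes were lower and 29.1% higher. None passed the 2-fold threshold, against 10.7% of all probes lower and 9.42% higher. The arrays did not overlap for 23 genes in the lower and 9 in the higher direction, against 32.8% and 33.4% of all probes. Without Sun224T-K replicate 3, the number lower fell from 17 to 9, and without Sun049T-Z replicate 2 to 11. The number higher was 6, and 2 without Sun224T-K replicate 2. Of all tested probes, 25.6% and 25.4% were lower in the former 2 fits and 27.1% higher in the last.

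MRPL24 had the largest difference between the parents, -0.97 ± 0.13 (limma adjusted p = 0.0002), just short of 2-fold. MRPL37 (-0.64), MRPS5 (-0.63), MRPL10 (-0.62), MRPL35 (-0.60), MRPL28 (-0.60), RSM10 (-0.58), MRPL51 (-0.54), MRPS18 (-0.52) and MRPS17 (-0.47) were also lower in Sun224T-K, with limma adjusted p from 0.00108 to 0.0174. With the spots marked as outliers kept, MRPS5 (-0.32, adjusted p = 0.266) and MRPS17 (-0.099, adjusted p = 0.765) did not pass. In the opposite direction, MRPL11, which encodes the uL10 protein of the stalk, was at -1.83, -1.15 and -1.23 in Sun049T-Z and -0.78, -0.46 and -0.91 in Sun224T-K. Its difference was 0.69 ± 0.21 (limma adjusted p = 0.0185), and in Hyb-8 it was at -0.83, -1.25 and -0.79, overlapping both parents. MRPL33 (uL30) was higher in Sun224T-K by 0.55 (adjusted p = 0.0144), MRPS8 (uS8) by 0.45 (adjusted p = 0.0138), RSM27 (mS33) by 0.35 (adjusted p = 0.0461), RSM24 by 0.34 (adjusted p = 0.0266) and MRPL17 (mL46) by 0.30 (adjusted p = 0.0321), all in the limma fit. With normexp, MRPS8, RSM27, RSM24 and MRPL17 did not pass. Members nearest to 0 in each subunit included MRPL20 at -0.0043, MRPL40 at -0.0012 and MRPS9 at 0.01.

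Against both parents at once, Hyb-8 was rarely in between. Its mean lay below both parental means for 43 of the 54 genes, 28 of the large and 15 of the small subunit, between them for 11, and above both for none. Over all tested probes the mean of Hyb-8 was below both parents for 24.9% and above both for 28.6%. All 3 Hyb-8 arrays lay below all 6 parental arrays for 28 genes, 18 large and 10 small, which is 51.9% of them against 6.83% of all tested probes, and above all parental arrays for none, against 6.22%. These 28 included MRPL1 (uL1), MRPL3 (mL44), MRPL6 (uL6), MRPL13 (mL50), MRPL20 (mL58), MRPL27 (mL41), MRPL38 (uL14) and MRPL40 (uL24) of the large and MRPS35 (mS45), MRPS9 (uS9), RSM18 (bS18) and RSM23 (mS29) of the small subunit beside most genes named above. With 1 array left out at a time the number was 28 to 34. It was 33 without Sun049T-Z replicate 1 and 28 without Hyb-8 replicate 2. The shares of all tested probes were 7.89% and 9.32% without these arrays in turn. Leaving out an array can only keep or raise such a number, so these counts cannot show whether the 28 depends on a single array. In the slides with all 3 strains, Hyb-8 was below both parents for 45 and 41 genes, where 17.9% and 28.3% of all probes were.

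The genes outside this pattern were few. Hyb-8 was between the parents for MRPL11, MRPL17, MRPL25, MRPL33, MRPL36 and MRPL39 of the large and MRPS8, MRPS16, RSM7, RSM22 and RSM27 of the small subunit. RSM7 was at 2.41, 2.33 and 2.21 in Sun049T-Z, 2.45, 2.58 and 2.40 in Sun224T-K, and 2.32, 2.50 and 2.24 in Hyb-8, so all groups overlapped. MRPS16, which encodes bS16, was at 1.32, 1.29 and 1.33 in Sun049T-Z, 1.23, 1.03 and 1.01 in Sun224T-K, and 0.93, 1.16 and 1.38 in Hyb-8, where the single arrays spread over the whole range of both parents. MRPL25 (mL59) was low in both Sun224T-K, at -3.32, -3.57 and -3.40, and Hyb-8, at -3.23, -3.49 and -3.43, against -2.46, -3.10 and -3.17 in Sun049T-Z. RSM22, the methyltransferase-like member, had differences of 0.09 and -0.19 in Hyb-8 against Sun049T-Z and Sun224T-K and passed in neither.

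The genes were also grouped by origin of the protein. For Hyb-8 minus Sun049T-Z, the 33 genes with a bacterial counterpart had a median of -0.50 with 20 lower at an adjusted p under 0.05, and the 20 mitochondrion-specific genes one of -0.41 with 11 lower. For Hyb-8 minus Sun224T-K the medians were -0.29 with 4 lower and -0.39 with 1 lower, and between the parents they were -0.20 with 11 lower and -0.02 with 6 lower. Over all tested probes, 27.3%, 2.46% and 29.1% were lower in these comparisons. In each group 3 genes were higher between the parents, where 29.1% of all probes were, and none in the other comparisons. The differences between these groups were not tested. Within the small subunit, the 9 MRPS and the 11 RSM genes had medians of -0.40 and -0.50 against Sun049T-Z and -0.31 and -0.27 against Sun224T-K. MRPS12 and RSM19 are the only neighbouring pair among the 54 in the order of protein-coding genes. MRPS12 differed by -0.60 and -0.32 and RSM19 by -0.50 and -0.25 from Sun049T-Z and Sun224T-K.

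Several genes had 1 array far from its replicates. MRPL31, encoding mL60, was at -1.20 on Sun049T-Z replicate 1 and at -0.0013 and 0.0030 on the other Sun049T-Z arrays. It was at -0.45, -0.20 and -0.52 in Sun224T-K and at -0.76, -0.77 and -0.79 in Hyb-8, and it passed in no comparison. Without Sun049T-Z replicate 1 it was lower in both Hyb-8 and Sun224T-K than in Sun049T-Z. MRPS28 was at -2.23, -1.12 and -1.0 in Sun049T-Z, and MRPL39 (bL33) at -1.91, -0.98 and -1.01, with replicate 1 the lowest in both. The same array was the lowest of Sun049T-Z for MRPL44 (mL53), at -1.26 against -0.61 and -0.65, and MRPL11 and MRPL10, and the highest for MRPL25, MRPL35 and RSM26.

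The remaining mitochondrial ribosomal proteins carry other names, and the medians of their 27 genes were also negative in both comparisons with Hyb-8. The median was -0.39 for Hyb-8 minus Sun049T-Z, -0.30 for Hyb-8 minus Sun224T-K and -0.01 for Sun224T-K minus Sun049T-Z. At an adjusted p under 0.05, 12, 3 and 5 genes were lower and 1, 0 and 3 higher. Over all tested probes 27.3%, 2.46% and 29.1% were lower and 28.7%, 3.03% and 29.1% higher. In the first comparison 14 of the 27 had all Hyb-8 arrays below the Sun049T-Z arrays, against 31.6% of all probes. EHD3, QRI5 (mS38) and SWS2 (uS13) had them all above, 3 genes against 34.1% of all probes. QRI5 had a difference of 0.32 and SWS2 one of 0.23, and neither passed. IMG1 (bL19) was at 0.26 ± 0.25 in Hyb-8, compared with 1.40 ± 0.01 in Sun049T-Z and 1.14 ± 0.29 in Sun224T-K (mean ± SD of log2 levels, n = 3), lower in Hyb-8 with log2 differences of -1.14 and -0.89 (limma adjusted p under 0.05 in each). In the same order, NAM9 (uS4) had differences of -1.0 and -0.53 and MRP4 (uS2) of -0.30 and -0.57, where the first difference of MRP4 had an adjusted p of 0.062. MNP1, which encodes the bL12 protein of the stalk, differed by -0.65 (limma adjusted p = 0.012) and -0.70 (adjusted p = 0.056). EHD3, a hydrolase-like protein also found in the small subunit (mS47) and well above background on 8 arrays, was much lower in Sun049T-Z than in the other strains, with a mean log2 level of -1.23 in Hyb-8, compared with -6.55 in Sun049T-Z and -1.22 in Sun224T-K. VAR1, the member encoded in mitochondrial DNA, was at -1.53 ± 0.91 in Hyb-8, compared with -0.55 ± 0.61 in Sun049T-Z and -2.08 ± 0.24 in Sun224T-K (mean ± SD, n = 3), and passed only between the parents. Against Sun224T-K, IMG1 passed in 16, NAM9 in 12 and MRP4 in 10 of the 21 alternative fits, 9 of which left out 1 array each. Without Hyb-8 replicate 2, the median of the 27 genes against Sun049T-Z was -0.29 and the 3 lower than in Sun224T-K were 1. With normexp background correction that count was also 1, and in either fit 1.01% of all tested probes were lower than in Sun224T-K. Without Sun049T-Z replicate 1 the median between the parents was -0.19.

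Other lists covered the rest of mitochondrial protein synthesis, and their counts can be read against the 27.3% of all probes lower than in Sun049T-Z and the 2.46% lower than in Sun224T-K at an adjusted p under 0.05. Set against Sun049T-Z and Sun224T-K in turn, the 11 translation factors had medians of -0.28 and -0.24, with 4 and 1 lower and 1 and 0 higher at an adjusted p under 0.05. TUF1, the elongation factor that brings aminoacyl-tRNA, was lower than in Sun049T-Z with a log2 difference of -0.72, as were AIM23, an initiation factor, with -0.90 and RRF1, the ribosome recycling factor, with -0.50, while the initiation factor gene IFM1 was higher by 1.33. The 13 mitochondrial aminoacyl-tRNA synthetases had medians of -0.33 and -0.35, with 6 and 3 lower and 1 and 0 higher. ISM1, for isoleucine, was lower than in both parents, with differences of -1.21 and -0.96, as was NAM2, for leucine, with -0.85 and -0.66. Without Hyb-8 replicate 2 the synthetases had 3 and 1 lower, and with normexp 1 was lower than in Sun224T-K, where NAM2 passed in 8 of the 21 alternative fits. Of all tested probes, 25.6% and 1.01% were lower without Hyb-8 replicate 2, and 1.01% were lower than in Sun224T-K with normexp. RRF1 did not pass with the spots marked as outliers kept (-0.35, adjusted p = 0.113).

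The 10 genes for assembly of the mitochondrial ribosome had medians of -0.48 and -0.32, with 6 and 0 lower and 1 and 0 higher, and AFG3 and YTA12, which form the protease that matures the MRPL32 protein in yeast, were lower than in Sun049T-Z, with differences of -0.96 and -0.60. MRPL32 itself had differences of -0.11 and -0.23. The 17 translational activators of single mitochondrial mRNAs were mixed, with medians of -0.11 and -0.24, 6 and 2 lower and 2 and 0 higher: PET54 was lower than in both parents, with differences of -1.01 and -0.73 (the second not past the threshold with normexp, at -0.53 and a limma adjusted p of 0.0994), and CBS1, needed for cytochrome b mRNA, was higher than in Sun049T-Z by 1.31. The 7 genes of mitochondrial transcription and DNA maintenance had medians of -0.06 and -0.10, with 1 and 0 lower and 2 and 0 higher. For all 3 lists, the shares over all tested probes were 27.3% and 2.46% lower and 28.7% and 3.03% higher.

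Among 6 regulators, PUF3, an RNA-binding protein that binds many mRNAs for mitochondrial ribosomal proteins, was at -1.85 ± 0.11 in Hyb-8, compared with -0.37 ± 0.16 in Sun049T-Z and -1.5 ± 0.18 in Sun224T-K (mean ± SD of log2 levels, n = 3). Its difference of -1.48 from Sun049T-Z passed, and that of -0.35 from Sun224T-K did not (limma adjusted p = 0.155). HAP4, the activating subunit of the Hap complex, which induces respiratory genes, was at 3.10 ± 0.08, 1.91 ± 0.03 and 3.36 ± 0.15 in the same order, higher than in Sun049T-Z by 1.18 and different from Sun224T-K by -0.26 (limma adjusted p = 0.174). HAP5 was lower than in Sun049T-Z, with a difference of -1.16. Its difference of -0.51 from Sun224T-K had a limma adjusted p of 0.0403 and passed in 7 of the 21 alternative fits, not without Hyb-8 replicate 2 and not with normexp.

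The respiratory chain and the cytosolic ribosome had other orders of the strains. The 35 nuclear genes of the respiratory chain and ATP synthase had medians of -0.06 for Hyb-8 minus Sun049T-Z, -0.42 for Hyb-8 minus Sun224T-K and 0.38 for Sun224T-K minus Sun049T-Z. At an adjusted p under 0.05, 10 were lower and 9 higher in the first, 10 lower and 0 higher in the second, and 2 lower and 16 higher in the third, so that the shares in the first were close to the 27.3% and 28.7% of all probes. Without Hyb-8 replicate 2, the median against Sun049T-Z turned to 0.09 and the 10 lower than in Sun224T-K were 3. In that fit 1.01% of all tested probes were lower than in Sun224T-K. SDH2, a subunit of succinate dehydrogenase, was lower in Hyb-8 than in both parents, with differences of -0.82 and -1.20. The 138 cytosolic ribosomal protein genes had medians of 0.44, -0.08 and 0.54 in the same order, with 72, 0 and 87 higher and 6, 0 and 7 lower. Over all tested probes, 28.7%, 3.03% and 29.1% were higher and 27.3%, 2.46% and 29.1% lower in these comparisons. On Hyb-8 replicate 2, the centred median was 0.33 for the cytosolic ribosomal protein genes, against -0.02 and 0.05 on the other Hyb-8 arrays, and it was -0.34 for the respiratory chain genes, against -0.02 and -0.07. Without that array the median of the cytosolic ribosomal protein genes against Sun224T-K was -0.19. The signs of these medians and of the subunit medians held under the 4 other scalings of the arrays that were run, and only that of the respiratory chain against Sun049T-Z turned without Hyb-8 replicate 2.

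**Figure D5:**
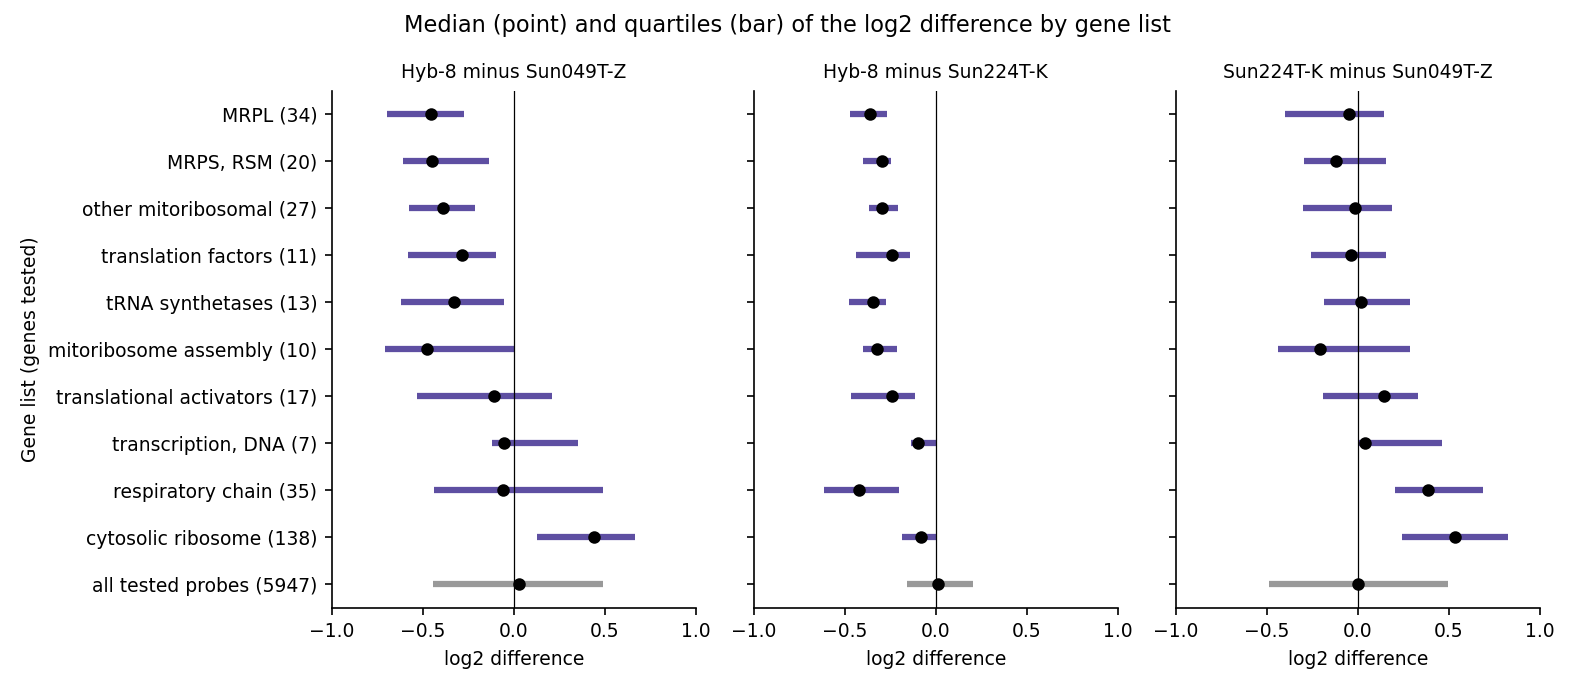
Median (point) and quartiles (bar) of the log2 difference (horizontal axis) for the 2 subunits, 8 other gene lists and all tested probes (rows) in the 3 comparisons (panels). In both panels with Hyb-8 the subunits and most lists of mitochondrial protein synthesis lie left of 0, while the cytosolic ribosome lies at 0.44 against Sun049T-Z and at -0.08 against Sun224T-K.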

How the data were processed

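The strains and their arrays came from the labels. The authors scanned one-colour Agilent arrays, and Agilent Feature Extraction 10.1.1.1 is named in the submitters' processing notes. The deposited scanner files hold an intensity per spot, with 43792 spots and 7 spots per probe. The deposited table of log2 values, which the authors made in GeneSpring GX, correlated with median-centred scanner values at r of at least 0.998 on every array, and served as an alternative only. Control spots were dropped together with any spot the scanner had flagged as an outlier. The log2 of the processed signal was shifted by the 75th percentile of its array, and each probe was given the mean of its remaining spots. Strains were compared with limma 3.58.1 (lmFit and eBayes, R 4.3.3) on all 9 arrays, with adjusted p over 5947 tested probes, a threshold of 0.05 and, for one of the call rules, a fold change of 2. Signal over background and 3 arrays per strain limit the precision. The fit was tested on simulated data. Gene names came from the RefSeq gene table of assembly R64, which matched 5756 probes, and 500 kept the name in the files. The members and lists were chosen with earlier results of these data known. Named in the text were the members called, those with the largest differences in each subunit (8 large, 6 small) and the 2 nearest to 0 per comparison, those with all Hyb-8 arrays below the parents, up to 4 genes per list, and genes marked by 1 array or named for their role, which were chosen after their values were seen. Promoter and transcript motifs and sequences were not analysed here.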

Additional observations from a re-analysis of the deposited data

How the results depend on the processing

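The medians of both subunits stayed negative in all 3 comparisons under every alternative. Leaving out 1 array at a time, the large-subunit median ranged from -0.51 to -0.38 against Sun049T-Z, from -0.40 to -0.29 against Sun224T-K and from -0.16 to -0.029 between the parents, and the small-subunit median from -0.47 to -0.37, from -0.35 to -0.23 and from -0.18 to -0.071. Alternatives that moved a median by more than the spread between arrays were, for the small subunit against Sun049T-Z, marked spots kept (-0.33) and slide as a fixed block (-0.37), and, between the parents, normexp for the large subunit (-0.15), the median shift for the large (-0.14) and the small subunit (-0.21), and marked spots kept for the small subunit (-0.016). The median of all probes between the parents also moved, to -0.105 with normexp, -0.0889 with the median shift and 0.035 with marked spots kept. Against Sun049T-Z it was 0.0685 with marked spots kept. Within the slide of the third replicates, chosen after seeing the data, the medians were -0.20 (large) and -0.14 (small) against Sun224T-K and -0.14 and -0.27 between the parents.

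Counts of calls moved more. With a 1.5-fold threshold, 12 large-subunit and 6 small-subunit genes were lower in Hyb-8 than in Sun049T-Z, 4 large-subunit genes were lower than in Sun224T-K, and between the parents 5 large-subunit and 1 small-subunit genes were lower and 1 large-subunit gene higher in Sun224T-K. With no threshold on the fold change these counts were 19, 12, 5, 12, 5 and 3, with 3 small-subunit genes higher. The share of all tested probes past 1.5-fold was not computed, so the 1.5-fold counts cannot be set against the whole array. The 4 genes 2-fold lower than in Sun049T-Z became 2 with normexp and 2 with slide as a fixed block, a fit in which 1 large-subunit gene was higher. They were 1 to 6 with 1 array left out, and 0 to 1 large-subunit genes were then higher. The 19 and 12 that passed were 16 to 21 and 8 to 13 with 1 array left out. Of the 5 large-subunit genes that passed against Sun224T-K, the count was 0 with normexp, 3 with only the arrays of both strains compared, 1 with slide as a fixed block and 0 to 6 with 1 array left out. In the same order, 1.01%, 2.03%, 1.18% and 0.555% to 3.9% of all tested probes were lower. The small subunit had 1 with only probes well above background on all arrays, 1 with only the arrays of both strains, 1 with slide as a random block, 2 with an intensity trend and robust variance, and 0 to 3 with 1 array left out.

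Between the parents, 1 large-subunit gene was 2-fold lower with quantile normalization and 1 with the median shift (0 to 1 with 1 array left out), and the 3 small-subunit genes higher were 0 with normexp, 1 with quantile normalization, 1 with the median shift and 1 to 3 with 1 array left out. The 3 large-subunit genes higher were 1 to 4, the 12 lower 5 to 12, and the 5 small-subunit genes lower 4 to 6 with 1 array left out, and 3 with marked spots kept. MRPL31 turned from 0.0093 to -0.40 with slide as a fixed block and, with 1 array left out, ranged from -0.39 without Sun049T-Z replicate 1 to 0.21 without Sun049T-Z replicate 3. The cause of these shifts was not tested.

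Correlations of the deviations of same-numbered arrays ranged from -0.246 to 0.151, and those of differently numbered arrays from -0.365 to 0.356. Deviations from means of 3 arrays cannot show whether replicate numbers pair the arrays, and the third replicates shared a slide. With the replicate block, 1 large-subunit gene was lower against Sun224T-K and 1 small-subunit gene was higher between the parents, and no other count moved by over 1.5 times.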
